A study of Mus musculus with 9 samples.

Results

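The 38 genes described here encode the proteins that join epithelial cells to each other and close the space between them, and they were measured in the colon of 9 wild-type mice. They were listed by symbol as tight, adherens, desmosome and gap junction genes, and all 38 had counts, as did 22262 genes in all. Ordered by role, they comprise 3 surface adhesion genes (Cdh1, Cdh17, Epcam), 7 adherens junction genes (Afdn, Ctnna1, Ctnnb1, Ctnnd1, Nectin1, Nectin2, Nectin3) and 9 desmosome genes (Dsc2, Dsg2, Dsp, Evpl, Jup, Perp, Pkp2, Pkp3, Ppl). The tight junction is represented by 4 membrane proteins (F11r, Marveld2, Marveld3, Ocln), 8 claudins (Cldn2, Cldn3, Cldn4, Cldn7, Cldn8, Cldn12, Cldn15, Cldn23) and 4 scaffold genes (Cgn, Pard3, Tjp1, Tjp3), and the gap junction by 3 connexins (Gja1, Gjb1, Gjb2).

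The series asked whether an enriched environment changes gene expression in the mouse colon. The wild-type animals were C57BL/6N females aged 12 months without a transgene, 4 from the standard environment (WT_SE mice 1, 2, 3 and 5) and 5 from the enriched environment (WT_EE mice 1 to 5). Animals were allotted at random, and WT_SE mice lived in small groups in standard cages. Housing of WT_EE mice was roomier, with more cage mates and extra material for nests. It also held wheels, tunnels, climbing equipment and loose items whose places were shifted several times a week. Which mice shared a cage is not given in the sources used here, so that cage and environment cannot be told apart.

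RNA came from a piece of the upper colon that held the whole wall, and each transcript was read next to its poly(A) tail, with unique molecular identifiers to count molecules. Library totals were 383401, 356704, 299062 and 368997 counts in WT_SE mice 1, 2, 3 and 5 and 454043, 295535, 444520, 336967 and 426436 counts in WT_EE mice 1 to 5. A level of 3 counts, taken as the floor for a detectable level, equalled between 6.61 and 10.2 CPM, and this limit covers counting error only. Levels below are CPM normalized by edgeR's TMM method. As tags come from the 3′ end of each transcript, levels were not divided by transcript length, and an order of genes by level is an order of tag numbers.

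Epithelial cells of the colon are held together by a belt of adherens junctions, in which cadherins and nectins bind their partners on the next cell and are tied to actin by catenins and afadin. Desmosomes add spot-like contacts anchored to keratin filaments. Above them the tight junction, built from claudins, occludin and tricellulin on a scaffold of zonula occludens proteins, sets which ions and molecules pass between the cells, and connexins form channels from cell to cell.

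Several libraries stood apart in the levels of marker genes. The summed level of 9 smooth muscle markers was 2331, 1916, 2104 and 2463 CPM in WT_SE mice 1, 2, 3 and 5 and 2014, 3521, 1965, 3476 and 2425 CPM in WT_EE mice 1 to 5. WT_EE mice 2 and 4 lay above all others in this sum, but in raw counts, at 1010 and 1124, they were close to the 1048 of WT_EE mouse 5, whose library was larger. All 9 markers had a positive log2 fold change, and Acta2, the most abundant of them, Des and Smtn passed an unadjusted p of 0.05 as higher. The 7 adipocyte markers summed to 639.5, 27.8, 142 and 24.6 CPM in WT_SE mice 1, 2, 3 and 5 and 101, 185, 286, 114 and 32.4 CPM in WT_EE mice 1 to 5. WT_SE mouse 1 held most adipocyte RNA, with 91 counts of Cfd, the most abundant gene of that list, against 0 in WT_SE mice 2 and 5 and WT_EE mouse 5. Of the 7 markers, Plin1 was lower in WT_EE at an unadjusted p of 0.05.

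Markers of position along the colon also differed between mice. Slc10a2, an ileal-type bile acid transporter and the most abundant of the regional markers, had 26, 103, 110 and 16 counts in WT_SE mice 1, 2, 3 and 5 and 107, 3, 117, 4 and 10 counts in WT_EE mice 1 to 5. Hoxb13, a posterior homeobox gene, had 4, 0, 0 and 56 counts and 0, 45, 21, 24 and 20 counts in the same order. The mice low in Slc10a2 included all with over 20 counts of Hoxb13 except WT_EE mouse 3, and they were found in both environments. Of the 8 regional markers with an identifier, Hoxa11 was higher and Hoxd11 lower in WT_EE at an unadjusted p of 0.05, and Hoxd12 had 0 counts in all libraries.

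Epithelial RNA itself was at similar levels in both groups. The 19 epithelial markers, led by Lgals4, summed to 5022, 4756, 5506 and 5483 CPM in WT_SE mice 1, 2, 3 and 5 and 4776, 5863, 4732, 6012 and 4815 CPM in WT_EE mice 1 to 5. All 19 had counts, 8 had a positive and 11 a negative log2 fold change, and with an unadjusted p under 0.05 Lgals4 was higher and Cdx2, a transcription factor of the intestinal epithelium, was lower. The 38 junction genes together gave 6319, 6009, 6409 and 6563 CPM in WT_SE mice 1, 2, 3 and 5 and 5894, 6679, 5877, 6779 and 6279.6 CPM in WT_EE mice 1 to 5. These sums overlapped, and the WT_EE mice ranked in the same order by junction sum as by epithelial sum in CPM, with mice 2 and 4 at the top. In raw counts these 2 mice were instead the lowest of WT_EE in both sums. The junction genes had 2730, 1916, 2689, 2192 and 2714 counts in WT_EE mice 1 to 5, and the epithelial markers 2212, 1682, 2165, 1944 and 2081. The libraries of mice 2 and 4 were the smallest of WT_EE, and the part of library size in this order was not tested. In such bulk samples fewer cells of a type and less RNA per cell cannot be told apart. The part of muscle, fat and region in the results below was not tested, but fits without WT_EE mice 2 and 4 and with libraries scaled to the epithelial markers are given where they change a call.

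**Figure D1:**
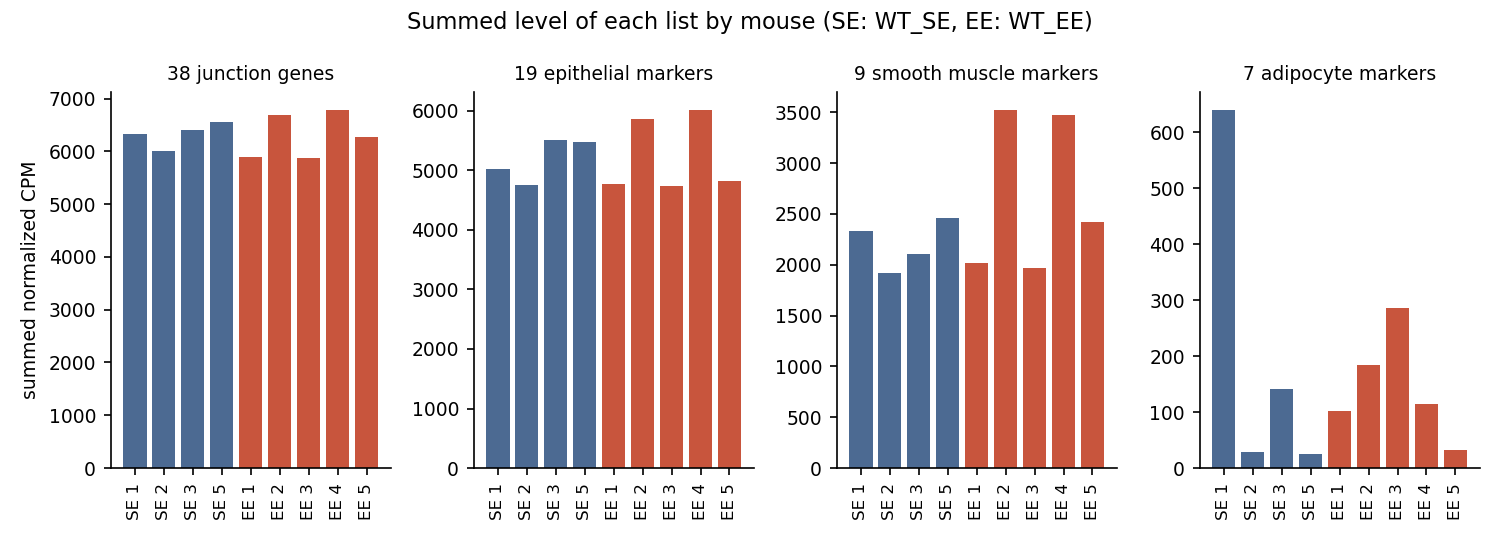
Summed normalized CPM of the 38 junction genes and of the epithelial, smooth muscle and adipocyte marker lists in each of the 9 mice (blue, WT_SE; red, WT_EE). The junction sum stays between 5877 and 6779 CPM, whereas the adipocyte sum ranges from 24.6 to 639.5 CPM.

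Between WT_EE and WT_SE, 5 of the 38 junction genes had an unadjusted p under 0.05 in edgeR's quasi-likelihood test. Higher in WT_EE were 2 members, Cldn23 and Ctnnd1, against 4.31% of all 17441 genes tested, and lower were 3 members, Ctnna1, Marveld2 and Tjp1, against 3.34% of all genes. The 7 adjusted calls among all genes depended on single mice and on the filter, with 0 without WT_SE mouse 3 and 48 without WT_EE mouse 1, and with 0 under edgeR's default filter and 143 without a filter. Of all genes, 751 were higher and 583 lower, and with upper quartile normalization this split turned to 615 higher and 753 lower. It also turned without WT_EE mice 2 and 4, to 590 higher and 714 lower. After Benjamini-Hochberg adjustment 0 members passed 0.05 in edgeR, against 7 genes or 0.0401% of all genes tested, and DESeq2 and limma-voom also gave 0 adjusted member calls. The largest fold change among the members, that of Cldn23, had an adjusted p of 0.0527 with edgeR. The groups did not overlap for 2 members that were higher in WT_EE, Cldn23 and Jup, against 1.38% of all genes, and for 1 that was lower, Marveld2, against 1.2%.

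Calls among the members depended on which mice were kept and how libraries were scaled. Without WT_EE mice 2 and 4, edgeR called Cldn23 and Ctnnd1 higher and 5 members lower, Cldn3, Ctnna1, Dsp, Nectin3 and Tjp1. With libraries scaled to the epithelial markers, the same 2 were higher and 4 were lower, Cldn3, Ctnna1, Nectin3 and Tjp1, while Marveld2 was not called, although its log2 fold change of −0.52 was close to the −0.53 of the edgeR fit with TMM.

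The members as a whole did not move in a common direction. Their median log2 fold change was −0.004, with 19 positive and 19 negative values, beside a median of 0.01 over all genes tested. Within each of the 7 role classes, members with a positive and members with a negative value were both found. The 33 members without a call had log2 fold changes from −0.62 to 0.65 and unadjusted edgeR p-values from 0.0606 to 0.776, and at the depth of these libraries such values do not show that a gene was equal in both groups.

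**Figure D2:**
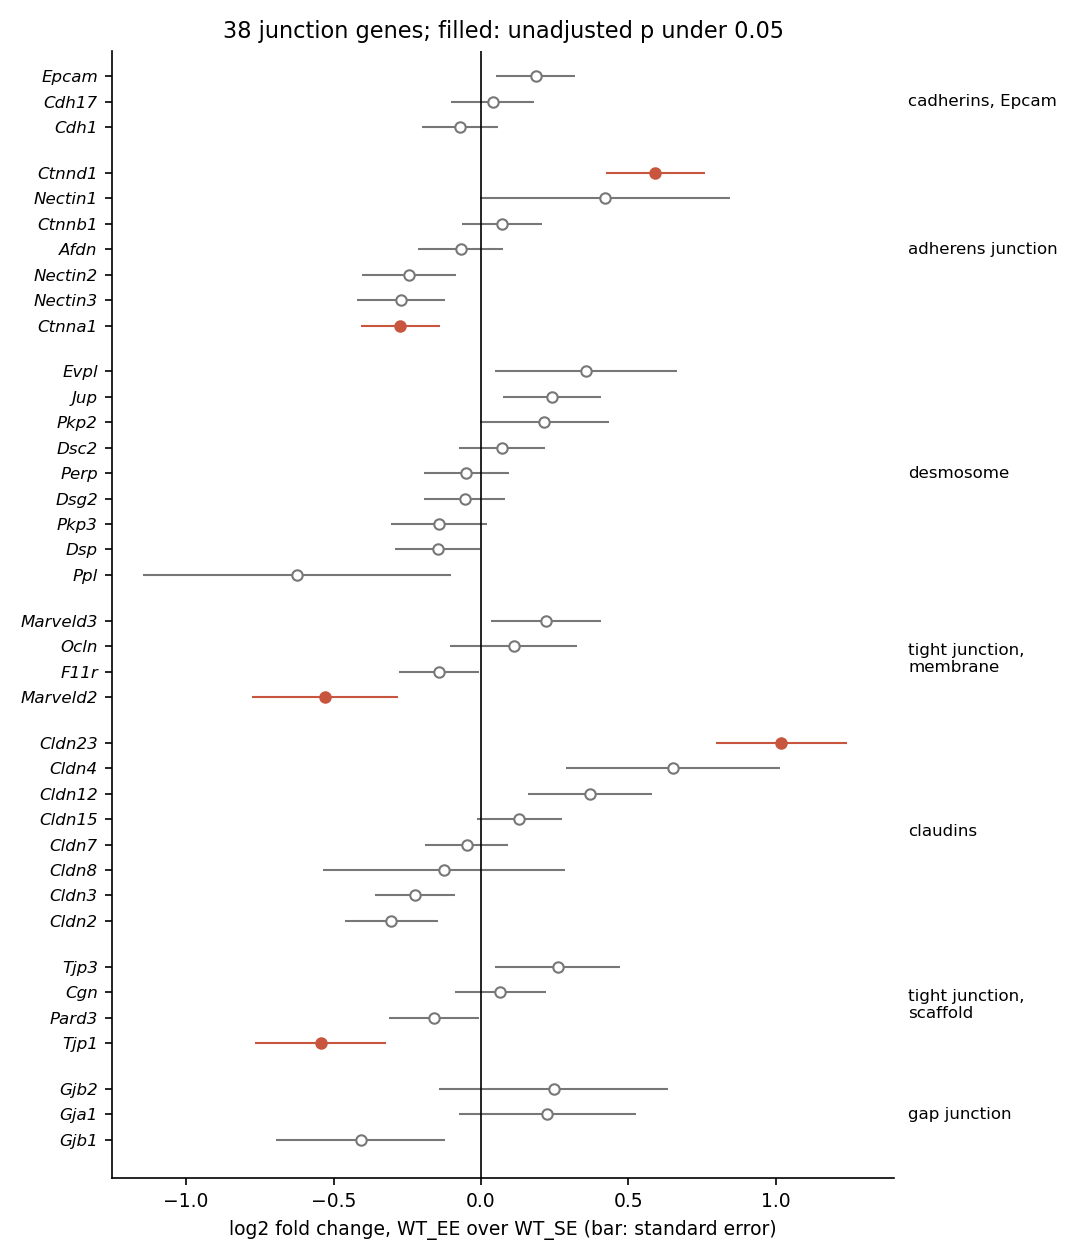
Log2 fold change of WT_EE over WT_SE for the 38 junction genes by role, with bars giving the standard error from edgeR. Filled red points mark the 5 members with an unadjusted p under 0.05, from −0.54 for Tjp1 to 1.02 for Cldn23, and open grey points mark the other 33.

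Promoter sequences were at hand in the RefSeq table on GRCm38.p6 for 24 of the 38 members, and are shown for the 4 of those 24 that were called or whose groups did not overlap. Each run gives the minus strand from 250 to 31 bases before the transcription start, 5′ to 3′. Capitals mark the GC box GGGCGG and the CCAAT box CCAAT, each searched on both strands.
Ctnnd1, chr2:84650771-84650990: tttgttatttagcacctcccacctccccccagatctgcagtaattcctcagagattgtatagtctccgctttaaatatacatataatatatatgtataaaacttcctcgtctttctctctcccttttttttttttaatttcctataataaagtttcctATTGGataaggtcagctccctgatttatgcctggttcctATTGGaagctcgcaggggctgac
Jup, chr11:100397821-100398040: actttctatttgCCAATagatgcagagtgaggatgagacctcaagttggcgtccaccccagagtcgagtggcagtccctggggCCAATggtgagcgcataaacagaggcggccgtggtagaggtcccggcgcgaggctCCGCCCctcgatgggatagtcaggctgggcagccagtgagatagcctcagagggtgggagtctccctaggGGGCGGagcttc
Marveld2, chr13:100617002-100617163: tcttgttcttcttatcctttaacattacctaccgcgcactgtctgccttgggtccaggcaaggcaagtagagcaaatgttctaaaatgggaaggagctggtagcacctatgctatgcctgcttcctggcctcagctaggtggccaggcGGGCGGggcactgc
Tjp1, chr7:65371275-65371494: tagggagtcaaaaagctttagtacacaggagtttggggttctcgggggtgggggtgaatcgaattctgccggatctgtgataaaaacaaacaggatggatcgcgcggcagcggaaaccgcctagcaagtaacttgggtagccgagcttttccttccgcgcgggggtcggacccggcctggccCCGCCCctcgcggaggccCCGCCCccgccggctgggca
The upstream region of Ctnnd1 held 2 CCAAT boxes and no GC box, and lies outside the gene as annotated by GENCODE, in an intron of the longer locus Gm28635, but within the span RefSeq gives for Ctnnd1, which ends at 84658977. That of Jup held 2 GC boxes and 2 CCAAT boxes and no gene of GENCODE, although the span RefSeq gives for Jup, which ends at 100397839, takes in the nearest 19 bases. Marveld2 had 1 GC box and no CCAAT box, and its run is 162 bases long because the farthest 58 bases belong to the last exon of Rad17, the gene before it on the same strand. Tjp1 had 2 GC boxes and no CCAAT box, and the start listed by RefSeq lies 156537 bases inside the longest form annotated by GENCODE, in an intron. The span RefSeq gives for Tjp1 ends at 65527850 and also takes in the whole run. Among all 27025 genes in the table, 28.6% held the GC box and 31.5% the CCAAT box in the same window, as did 16 and 7 of the 24 members. The E-box CACCTG, which is bound by repressors of cadherin genes, was found in 4 of the 24 members (Epcam, F11r, Nectin2 and Tjp3) and in 15.3% of all genes. A match to these letters is a description only.

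The surface adhesion genes were the most abundant class per gene. Cdh1, which encodes E-cadherin, the calcium-dependent adhesion protein of the adherens belt, was at 475, 384, 484 and 506 CPM in WT_SE mice 1, 2, 3 and 5 and at 427, 436, 391, 489 and 460.4 CPM in WT_EE mice 1 to 5. With a mean of 167 counts per library, it had more tags than any other member. The WT_EE values all lay within the range of WT_SE, and the log2 fold change was −0.07 (SE 0.13), with p = 0.587 in edgeR and 0.476 in the exact permutation test.

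Epcam, an adhesion protein that stabilizes claudins at the lateral membrane, was at 352, 278, 372 and 413 CPM in WT_SE mice 1, 2, 3 and 5 and at 393, 379.95, 387, 436 and 416 CPM in WT_EE mice 1 to 5. WT_SE mouse 2 was low, the WT_EE mice were close together, and the groups overlapped. For Epcam the log2 fold change was 0.19 (SE 0.13), with p = 0.171 in edgeR and 0.0952 in the exact permutation test. Cdh17, the cadherin of intestinal cells that binds without catenins, had means of 287 ± 14.9 CPM in WT_SE (SD, n = 4) and 297 ± 53.96 CPM in WT_EE (SD, n = 5), with a log2 fold change of 0.04 (SE 0.14).

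The adherens junction held a called gene in each direction. Ctnnd1 (ENSMUSG00000034101, chr2:84600071-84650765, minus strand of GRCm38) encodes the catenin that binds the cadherin tail next to the membrane and keeps cadherins at the surface. It was at 211, 234, 122 and 197 CPM in WT_SE mice 1, 2, 3 and 5 and at 239.6, 335, 234, 393 and 271 CPM in WT_EE mice 1 to 5. WT_SE mouse 3 was far below the rest and WT_EE mice 2 and 4 were the highest, while WT_SE mouse 2 and WT_EE mouse 3 met at the border of the groups. The means were 191 ± 48.6 CPM in WT_SE (SD, n = 4) and 294 ± 68.03 CPM in WT_EE (SD, n = 5). For Ctnnd1 the log2 fold change was 0.59 (SE 0.17), with p = 0.00114 and an adjusted p of 0.203 in edgeR and p = 0.0397 in the exact permutation test. Its size rested in part on single libraries: without WT_EE mice 2 and 4, a setting chosen after seeing the data, it was 0.36, and without WT_SE mouse 3 it was 0.45, both still called by edgeR.

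Ctnna1 (ENSMUSG00000037815, chr18:35118859-35254779, plus strand) encodes the catenin that ties the cadherin complex to actin. It was at 358, 287, 331 and 331 CPM in WT_SE mice 1, 2, 3 and 5 and at 250.4, 314, 249, 288 and 259 CPM in WT_EE mice 1 to 5. WT_SE mice 1, 3 and 5 lay above every WT_EE mouse, and WT_SE mouse 2 lay among them. The means were 327 ± 29.4 CPM in WT_SE (SD, n = 4) and 272 ± 28.00 CPM in WT_EE (SD, n = 5). For Ctnna1 the log2 fold change was −0.27 (SE 0.13), with p = 0.0469 and an adjusted p of 0.641 in edgeR and p = 0.0397 in the exact permutation test. This call was at the edge of the threshold, and edgeR no longer called the gene without WT_SE mouse 1, 3 or 5 (log2 fold changes of −0.22, −0.26 and −0.26) or without WT_EE mouse 1, 3 or 5 (−0.24, −0.24 and −0.25). Without WT_EE mice 2 and 4 it was called at −0.37.

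The tags of these catenins can be set against each other within a library, where no scaling is needed. The ratio of Ctnnd1 to Ctnna1 counts was 0.591, 0.816, 0.367 and 0.595 in WT_SE mice 1, 2, 3 and 5 and 0.957, 1.07, 0.939, 1.37 and 1.04 in WT_EE mice 1 to 5. Every WT_EE mouse lay above every WT_SE mouse. This ratio was chosen after its values were seen and was not tested.

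Ctnnb1, the catenin between cadherins and Ctnna1 and a mediator of Wnt signals, was the most abundant gene of the class. It was at 318, 415, 386 and 353 CPM in WT_SE mice 1, 2, 3 and 5 and at 322, 460.1, 398, 417 and 345 CPM in WT_EE mice 1 to 5. The groups overlapped over most of their range, WT_EE mouse 2 was the highest and WT_SE mouse 1 the lowest, and the log2 fold change was 0.07 (SE 0.14). It turned to −0.05 without WT_EE mice 2 and 4. Afdn, the afadin that links nectins to actin, had means of 241 ± 23.4 CPM in WT_SE (SD, n = 4) and 232 ± 38.3 CPM in WT_EE (SD, n = 5), with a log2 fold change of −0.07 (SE 0.14). The nectins, adhesion proteins of the immunoglobulin type, differed in level and direction. Nectin3 had means of 260.3 ± 30.5 CPM in WT_SE (SD, n = 4) and 218 ± 47.5 CPM in WT_EE (SD, n = 5) with a log2 fold change of −0.27 (SE 0.15). Nectin2 had a log2 fold change of −0.24 (SE 0.16) and Nectin1, with a mean of 6.11 counts per library the rarest member, one of 0.42 (SE 0.42).

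**Figure D3:**
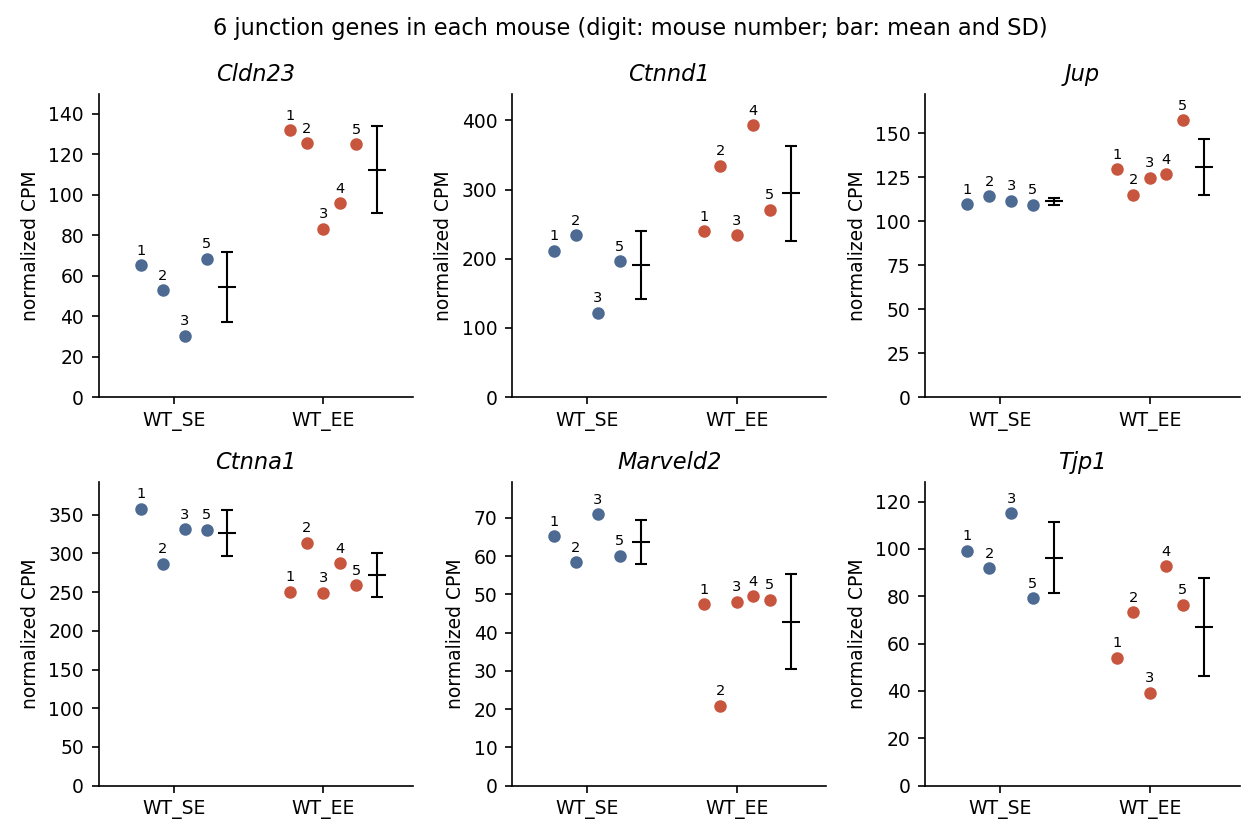
Normalized CPM of the 6 junction genes that were called or whose groups did not overlap, one point per mouse with its number, and black bars giving mean and SD of each environment (WT_SE, n = 4; WT_EE, n = 5). Cldn23 and Jup lie higher and Marveld2 lower in every WT_EE mouse than in every WT_SE mouse, and the groups of Ctnnd1, Ctnna1 and Tjp1 overlap.

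No desmosome gene passed the edgeR test. Jup (ENSMUSG00000001552, chr11:100368958-100397763, minus strand) encodes plakoglobin, which is shared by desmosomes and adherens junctions. It was at 109.6, 114, 112 and 109 CPM in WT_SE mice 1, 2, 3 and 5 and at 129.5, 115, 125, 127 and 157 CPM in WT_EE mice 1 to 5. Every WT_EE mouse lay above every WT_SE mouse, by less than 1 CPM between WT_SE mouse 2 and WT_EE mouse 2, and WT_EE mouse 5 was the highest. The means were 111 ± 2.23 CPM in WT_SE (SD, n = 4) and 131 ± 15.9 CPM in WT_EE (SD, n = 5). For Jup the log2 fold change was 0.24 (SE 0.17), with p = 0.154 and an adjusted p of 0.749 in edgeR, and p = 0.0159 in the exact permutation test, whose p adjusted over all genes was 0.621. In WT_SE the SD of Jup was 2.23 CPM, on counts of 42, 41, 33 and 40, which is less than counting alone would usually give.

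Dsg2, a desmosomal cadherin and the most abundant gene of the class, was at 347, 301, 325 and 344 CPM in WT_SE mice 1, 2, 3 and 5 and at 298, 401, 275, 356 and 271 CPM in WT_EE mice 1 to 5. WT_EE mouse 2 was the highest and the WT_SE range lay inside that of WT_EE, with a log2 fold change of −0.06 (SE 0.14). Dsp, which encodes the desmoplakin that fastens keratin, had a log2 fold change of −0.15 (SE 0.14) on means of 312 ± 33.1 CPM in WT_SE (SD, n = 4) and 285 ± 55.9 CPM in WT_EE (SD, n = 5). Perp, Dsc2, Pkp3, Pkp2 and Evpl, which encode further membrane, plakophilin and plakin proteins of the desmosome, had mean levels between 27.99 and 248 CPM in WT_SE and log2 fold changes between −0.14 and 0.36. Ppl, the periplakin gene, had 9, 8, 9 and 4 counts in WT_SE mice 1, 2, 3 and 5 and 11, 0, 13, 0 and 4 counts in WT_EE mice 1 to 5. It was the only member with 0 counts in a library, and both zeros were in WT_EE mice 2 and 4. Its log2 fold change of −0.62 (SE 0.52) had p = 0.240 in edgeR and 0.246 in the exact permutation test, and its counts were chosen for print after they were seen. Ppl was called lower by limma-voom at an unadjusted p of 0.05.

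Among the membrane proteins of the tight junction, Marveld2 was the gene called. Marveld2 (ENSMUSG00000021636, chr13:100595957-100616971, minus strand) encodes tricellulin, which seals the points where 3 cells meet. It was at 65.3, 58.5, 71.02 and 60.1 CPM in WT_SE mice 1, 2, 3 and 5 and at 47.5, 20.9, 48.1, 49.5 and 48.6 CPM in WT_EE mice 1 to 5. Every WT_EE mouse was below every WT_SE mouse, WT_EE mice 1, 3, 4 and 5 lay within 2 CPM of each other, and WT_EE mouse 2, with 6 counts, was far below them. The means were 63.7 ± 5.66 CPM in WT_SE (SD, n = 4) and 42.9 ± 12.3 CPM in WT_EE (SD, n = 5). For Marveld2 the log2 fold change was −0.53 (SE 0.25), with p = 0.0386 and an adjusted p of 0.607 in edgeR, and p = 0.00794 in the exact permutation test, the smallest that this test can give with these groups. Adjusted over all genes, this permutation p was 0.549, the lowest of any member. The edgeR call was lost at −0.39 without WT_EE mouse 2, −0.51 without WT_SE mouse 1, −0.47 without WT_SE mouse 3 and −0.40 without WT_EE mice 2 and 4, and DESeq2 did not call the gene either (−0.55).

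Ocln, the occludin gene, is the neighbour of Marveld2 on chromosome 13, 43.2 kb away on the same strand, and encodes a protein of the same family. Its means were 68.8 ± 13.3 CPM in WT_SE (SD, n = 4) and 73.2 ± 10.4 CPM in WT_EE (SD, n = 5), with a log2 fold change of 0.11 (SE 0.22). The ratio of Marveld2 to Ocln counts ran from 0.808 to 1.14 over the WT_SE mice and from 0.286 to 0.8 over the WT_EE mice, so that the nearest mice stood side by side without overlap. The ratio was chosen after its values were seen. Marveld3, another gene of the family, had a log2 fold change of 0.22 (SE 0.19). F11r, an adhesion molecule of the immunoglobulin type and the most abundant gene of this class, was at 245, 234, 267 and 273 CPM in WT_SE mice 1, 2, 3 and 5 and at 196, 265, 232, 229 and 238 CPM in WT_EE mice 1 to 5. WT_EE mouse 1 was the lowest, the groups overlapped, and the log2 fold change was −0.14 (SE 0.14).

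The claudins, which line the pores and seals of the tight junction, held the member with the largest fold change. Cldn23 (ENSMUSG00000055976, chr8:35824712-35826559, minus strand) encodes a claudin of the surface epithelium of the colon. It was at 65.3, 52.9, 30.4 and 68.3 CPM in WT_SE mice 1, 2, 3 and 5 and at 132, 125, 83.1, 95.9 and 125 CPM in WT_EE mice 1 to 5. Before any scaling, these were 25, 19, 9 and 25 counts in WT_SE and 61, 36, 38, 31 and 54 counts in WT_EE. Every WT_EE mouse lay above every WT_SE mouse on both scales, including WT_EE mouse 2, whose library was the smallest of all 9, and WT_SE mouse 3 was the lowest.

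The means of Cldn23 were 54.2 ± 17.2 CPM in WT_SE (SD, n = 4) and 112 ± 21.4 CPM in WT_EE (SD, n = 5). For Cldn23 the log2 fold change was 1.02 (SE 0.22), with p = 5.08e-05 and an adjusted p of 0.0527 in edgeR, and p = 0.0159 in the exact permutation test, whose p adjusted over all genes was 0.621. Leaving out any 1 mouse kept the log2 fold change between 0.85 (without WT_SE mouse 3) and 1.15 (without WT_SE mouse 5), and edgeR called the gene each time. Within the 7 libraries whose names end in L2, it was 0.89 and still called, with an edgeR adjusted p of 0.791. The ending L3 was found in WT_SE mice 1 and 3 alone, so that no value within it could be had.

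As a share of the tags of the 8 member claudins in a library, Cldn23 took 4.69% ± 1.46 in WT_SE (SD, n = 4) and 9.57% ± 1.83 in WT_EE (SD, n = 5). The highest share in WT_SE was 5.67% in mouse 1 (25 of 441 counts, 95% Wilson interval 3.87 to 8.23%) and the lowest in WT_EE was 7.66% in mouse 3 (38 of 496 counts, 5.63 to 10.3%). The shares did not overlap between the groups, although the counting intervals of these nearest mice did. The sum of the 8 claudins was 1151, 1053, 1197 and 1238 CPM in WT_SE mice 1, 2, 3 and 5 and 1112, 1199, 1084, 1240.1 and 1229 CPM in WT_EE mice 1 to 5, with overlapping groups.

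Cldn3, a sealing claudin and the most abundant of the class, was at 305, 273, 355 and 349.9 CPM in WT_SE mice 1, 2, 3 and 5 and at 248, 299.8, 245, 322 and 266 CPM in WT_EE mice 1 to 5. WT_SE mice 3 and 5 were the highest, and WT_EE mice 2 and 4 overlapped the WT_SE range. For Cldn3 the log2 fold change was −0.22 (SE 0.14) with p = 0.111 in edgeR and 0.103 in the exact permutation test. The ratio of Cldn23 to Cldn3 counts, chosen after its values were seen, was 0.214, 0.194, 0.0857 and 0.195 in WT_SE mice 1, 2, 3 and 5 and 0.53, 0.419, 0.339, 0.298 and 0.47 in WT_EE mice 1 to 5. Every WT_EE mouse lay above every WT_SE mouse in this ratio. The 3′ end of Cldn3 overlaps Wbscr25 on the other strand by 40 bases, which had 3 counts in all 9 libraries.

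Cldn2, which forms a cation and water pore and is typical of crypts, was at 183, 226, 237 and 238 CPM in WT_SE mice 1, 2, 3 and 5 and at 164, 122, 229.5, 161 and 201 CPM in WT_EE mice 1 to 5. WT_EE mouse 2 was the lowest, and WT_EE mice 3 and 5 lay within the WT_SE range. For Cldn2 the log2 fold change was −0.30 (SE 0.16) with p = 0.0606 in edgeR and 0.103 in the exact permutation test. Without WT_SE mouse 1 and without WT_EE mouse 3, it was called lower at −0.38 and −0.42, and with upper quartile normalization at −0.36.

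Cldn15, the other cation pore, was at 243, 219.98, 189 and 246 CPM in WT_SE mice 1, 2, 3 and 5 and at 244, 282, 203, 291 and 224 CPM in WT_EE mice 1 to 5. WT_EE mice 2 and 4 were the highest and the other WT_EE mice lay among the WT_SE mice. The log2 fold change of 0.13 (SE 0.14) turned to −0.01 without WT_EE mice 2 and 4. Cldn2 and Cldn15 stood in a ratio of counts of 0.753 to 1.25 in WT_SE and 0.432 to 1.13 in WT_EE, which overlapped, and this ratio too was chosen after values were seen.

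Cldn12, a claudin that lacks the usual scaffold-binding end, was at 54.8, 58.5, 57.5 and 79.3 CPM in WT_SE mice 1, 2, 3 and 5 and at 77.7, 80.2, 83.1, 83.5 and 80.98 CPM in WT_EE mice 1 to 5. The WT_EE mice lay within 6 CPM of each other and WT_SE mouse 5 stood with them, whereas WT_SE mice 1, 2 and 3 were lower. For Cldn12 the log2 fold change was 0.37 (SE 0.21), with p = 0.0850 in edgeR and 0.0159 in the exact permutation test, and without WT_SE mouse 5 it was 0.51 and called by edgeR. Adjusted over all genes, the permutation p of Cldn12 was 0.621. Cldn4, a claudin of the surface epithelium next to Cldn3 on chromosome 5, had 10, 7, 5 and 6 counts in WT_SE mice 1, 2, 3 and 5 and 9, 7, 13, 9 and 24 counts in WT_EE mice 1 to 5. WT_EE mouse 5 was set apart from the other WT_EE mice, and the log2 fold change was 0.65 (SE 0.36) with p = 0.0807 in edgeR and 0.0873 in the exact permutation test. It was 0.33 without that mouse, and 0.81 and called higher without WT_EE mouse 1.

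Cldn7, a claudin of the whole lateral membrane, was at 253, 195, 281 and 219 CPM in WT_SE mice 1, 2, 3 and 5 and at 214, 247, 199, 241 and 245 CPM in WT_EE mice 1 to 5. The WT_EE values lay inside the WT_SE range. The log2 fold change of −0.05 (SE 0.14) had no stable sign, as it was 0.15 in the 7 libraries whose names end in L2. Cldn8, a sealing claudin of the distal colon, had 8, 3, 9 and 8 counts in WT_SE mice 1, 2, 3 and 5 and 6, 5, 6, 6 and 13 counts in WT_EE mice 1 to 5. WT_SE mouse 2 was at the floor of 3 counts and WT_EE mouse 5 was the highest in raw counts, and the log2 fold change of −0.12 (SE 0.41) was 0.28 in those 7 libraries.

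Of the scaffold genes, Tjp1 was lower in WT_EE. Tjp1 (ENSMUSG00000030516, chr7:65296165-65527781, minus strand) encodes the zonula occludens protein that binds claudins and occludin to actin. It was at 99.2, 91.9, 115 and 79.3 CPM in WT_SE mice 1, 2, 3 and 5 and at 53.97, 73.2, 39.3, 92.8 and 76.4 CPM in WT_EE mice 1 to 5. WT_EE mice 1 and 3 were the lowest, and WT_EE mouse 4 stood among the WT_SE mice. The means were 96.3 ± 14.9 CPM in WT_SE (SD, n = 4) and 67.1 ± 20.8 CPM in WT_EE (SD, n = 5). For Tjp1 the log2 fold change was −0.54 (SE 0.22), with p = 0.0190 and an adjusted p of 0.499 in edgeR, and p = 0.0476 in the exact permutation test. Without WT_EE mice 2 and 4 it was −0.76. The call was lost at −0.45 without WT_SE mouse 3, −0.47 without WT_EE mouse 1 and −0.39 without WT_EE mouse 3.

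Pard3, a polarity protein that places the tight junction and the most abundant gene of the class, was at 167, 142, 169 and 172 CPM in WT_SE mice 1, 2, 3 and 5 and at 138, 146, 168, 114 and 155 CPM in WT_EE mice 1 to 5. WT_SE mouse 2 stood below the other WT_SE mice, WT_EE mouse 4 was the lowest, and the log2 fold change was −0.16 (SE 0.15). Cgn, the cingulin gene, had means of 146 ± 26.1 CPM in WT_SE (SD, n = 4) and 154 ± 13.7 CPM in WT_EE (SD, n = 5) and a log2 fold change of 0.07 (SE 0.16). Tjp3, a relative of Tjp1, had means of 77.02 ± 18.5 CPM in WT_SE (SD, n = 4) and 92.7 ± 20.6 CPM in WT_EE (SD, n = 5) and a log2 fold change of 0.26 (SE 0.21). The ratio of Tjp1 to Tjp3 counts ran from 1.027 to 2.125 in WT_SE and from 0.367 to 1.105 in WT_EE. These ranges overlapped, and the ratio was not tested. The 3′ end of Tjp3 overlaps Apba3 on the other strand by 40 bases, which had 128 counts in all 9 libraries, and whether counting used the strand is not given in the sources used here.

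With the name ending as a covariate, which leaves WT_SE mice 2 and 5 to stand for the standard environment, none of the 3 lower calls held in edgeR. The log2 fold change was then −0.19 for Ctnna1, −0.43 for Marveld2 and −0.38 for Tjp1. Both higher calls held, at 0.88 for Cldn23 and 0.43 for Ctnnd1.

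The connexins were the rarest class, with means of 8.33 to 18.9 counts per library, and none passed the test. Gjb1, a connexin of colonic epithelium and the most abundant of the class, had 27, 20, 16 and 19 counts in WT_SE mice 1, 2, 3 and 5 and 30, 4, 18, 9 and 27 counts in WT_EE mice 1 to 5. WT_EE mice 2 and 4 were low, whereas WT_EE mice 1 and 5 were at the level of WT_SE. The means were 58.1 ± 8.42 CPM in WT_SE (SD, n = 4) and 41.7 ± 21.98 CPM in WT_EE (SD, n = 5), with a log2 fold change of −0.41 (SE 0.29) and p = 0.161 in edgeR and 0.214 in the exact permutation test. Without WT_EE mice 2 and 4 the log2 fold change was −0.07.

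Gjb2, another epithelial connexin, had 6, 9, 5 and 8 counts in WT_SE mice 1, 2, 3 and 5 and 9, 3, 9, 7 and 19 counts in WT_EE mice 1 to 5. WT_EE mouse 5 was the highest and WT_EE mouse 2 was at the floor of 3 counts. The log2 fold change of 0.25 (SE 0.39) turned to −0.12 without WT_EE mouse 5. Gja1, a connexin of many cell types including muscle and stroma, had means of 30.4 ± 8.72 CPM in WT_SE (SD, n = 4) and 36.2 ± 6.74 CPM in WT_EE (SD, n = 5) and a log2 fold change of 0.23 (SE 0.30).

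**Figure D4:**
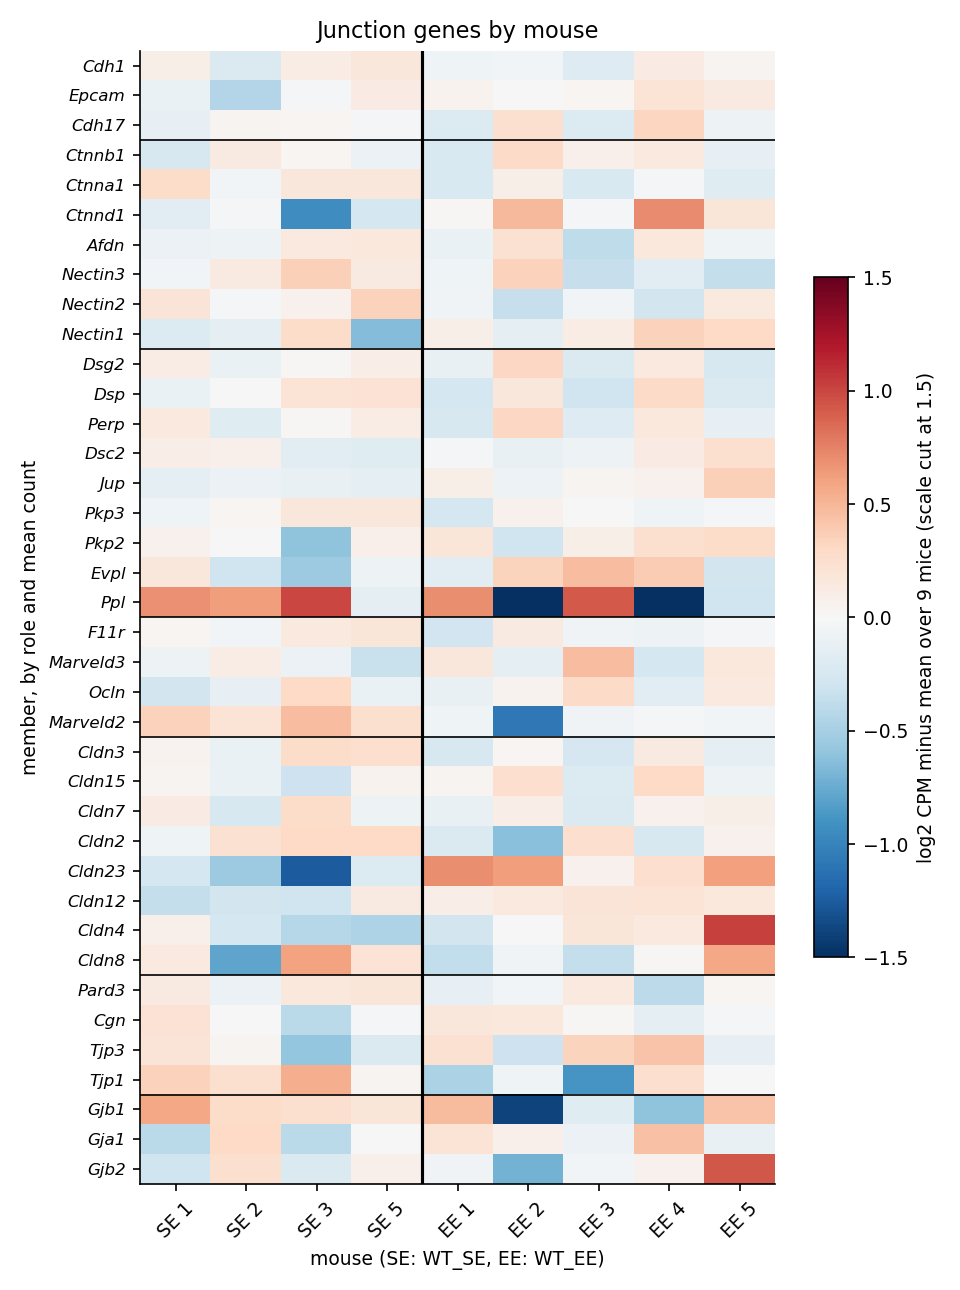
Log2 CPM of each junction gene minus its mean over the 9 mice, with genes in rows by role and mice in columns (red, above the mean; blue, below; color scale ends at 1.5). The columns of WT_EE mice 2 and 4 are blue for Ppl and Gjb1 and red for Ctnnd1, and the WT_SE columns are blue for Cldn23.

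The remaining genes of these junctions were taken from a list of 90, of which 88 had an identifier, 67 had a count and 60 were tested. In edgeR 1 of the 60 was higher at an unadjusted p of 0.05 and 0 were lower, against 4.31% and 3.34% of all genes tested. The gene was Vcl, which encodes vinculin, a protein that reinforces adherens junctions under tension. It had 49, 30, 25 and 48 counts in WT_SE mice 1, 2, 3 and 5 and 61, 59, 54, 63 and 63 counts in WT_EE mice 1 to 5. Each WT_EE mouse had more counts than each WT_SE mouse, but in CPM the groups overlapped. For Vcl the log2 fold change was 0.53 (SE 0.19) with p = 0.00726 and an adjusted p of 0.397 in edgeR and p = 0.0794 in the exact permutation test. The exact permutation test gave p = 0.0159 for Jam2, whose groups did not overlap, p = 0.0159 for Tjap1 and p = 0.0317 for Cdh11, all higher in WT_EE and with an adjusted permutation p of 0.621 or more. In 1.38% of all genes tested the groups did not overlap and WT_EE was higher. The share of all genes with a permutation p under 0.05 is not given here. Vinculin is also abundant in smooth muscle, the markers of which were highest in WT_EE mice 2 and 4, and the part of muscle in the Vcl value was not tested.

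Over the 60 genes, 42 log2 fold changes were positive and 18 negative, and the median was 0.11, beside −0.004 for the 38 members. By junction, the median was 0.06 for 27 tight junction genes, 0.16 for 18 adherens junction genes, 0.07 for 8 desmosome genes and −0.03 for 7 gap junction genes. Of the desmosomal cadherins of stratified epithelia, Dsg1a, Dsg1b, Dsg4, Dsc1 and Dsc3 were at 0 in all 9 libraries and Dsg1c had 1 count in all. Dsg3, another of them, had 0, 1, 3 and 0 counts in WT_SE mice 1, 2, 3 and 5 and 1, 4, 4, 3 and 1 counts in WT_EE mice 1 to 5, above the floor of 3 counts only in WT_EE mice 2 and 3. Claudins at 0 in all libraries were Cldn6, Cldn16, Cldn18, Cldn19, Cldn20, Cldn24 and Cldn34a. Counts of 0 allow a level of up to 6.61 to 10.2 CPM per library.

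The members were mostly well counted. Means ran from 6.11 to 167 counts per library, with a median of 54.9, beside a median of 9.33 over all genes tested. In 34 members every library was above the floor of 3 counts, and in 4 (Cldn8, Gjb2, Nectin1 and Ppl) at least 1 library was at or below it. The biological coefficient of variation between mice had a median of 12.5% over the members and 18.9% over all genes tested, which are not matched for abundance. Within an environment, the SD of log2 CPM ran from 0.12 for Pkp3 to 1.02 for Ppl, with a median of 0.21. At like abundance, the median SD of members and of all genes was 0.40 and 0.43 at means of 5 to 20 counts. It was 0.302 and 0.300 at 20 to 40, 0.18 and 0.22 at 40 to 80, and 0.19 and 0.20 at 80 or more. Ctnnd1, Cldn23, Tjp1 and Marveld2 had SDs of 0.36, 0.38, 0.36 and 0.36, so that 4 of the 5 called members varied more between mice than the median member.

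Counts of the abundant members did not grow in proportion to the library total. For the 15 members with a mean of 80 or more counts, a fit of log summed counts on log total had a slope of 0.646, where 1 is proportional growth, and 13 of the 15 single slopes were below 1. The same was seen in all 980 genes of that abundance, with a slope of 0.549 and 861 slopes below 1. For members with a mean of 5 to 20 counts, the slope was 1.71, beside 1.34 over all 5018 such genes. Dsp, chosen for print after its counts were seen as the abundant member with the least variance for its mean, had 105, 106, 100 and 125 counts in WT_SE mice 1, 2, 3 and 5 and 113, 95, 109, 116 and 109 counts in WT_EE mice 1 to 5. Its counts stayed close to 100 whether the total was 299062 or 454043, and their variance was 0.715 times their mean, where independent counting alone gives 1. Over the 15 abundant members the median of this quotient was 1.603 and 2 were below 1, as were 177 of the 980 genes. The smallest libraries were those of WT_EE mouse 2, WT_SE mouse 3 and WT_EE mouse 4, and the part of library size in the CPM of abundant genes, in their fold changes and in the marker sums was not tested. Whether high counts were compressed when the deposited table was made was not tested either, so that levels, orders and fold changes of abundant genes hold for the counts as deposited.

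**Figure D5:**
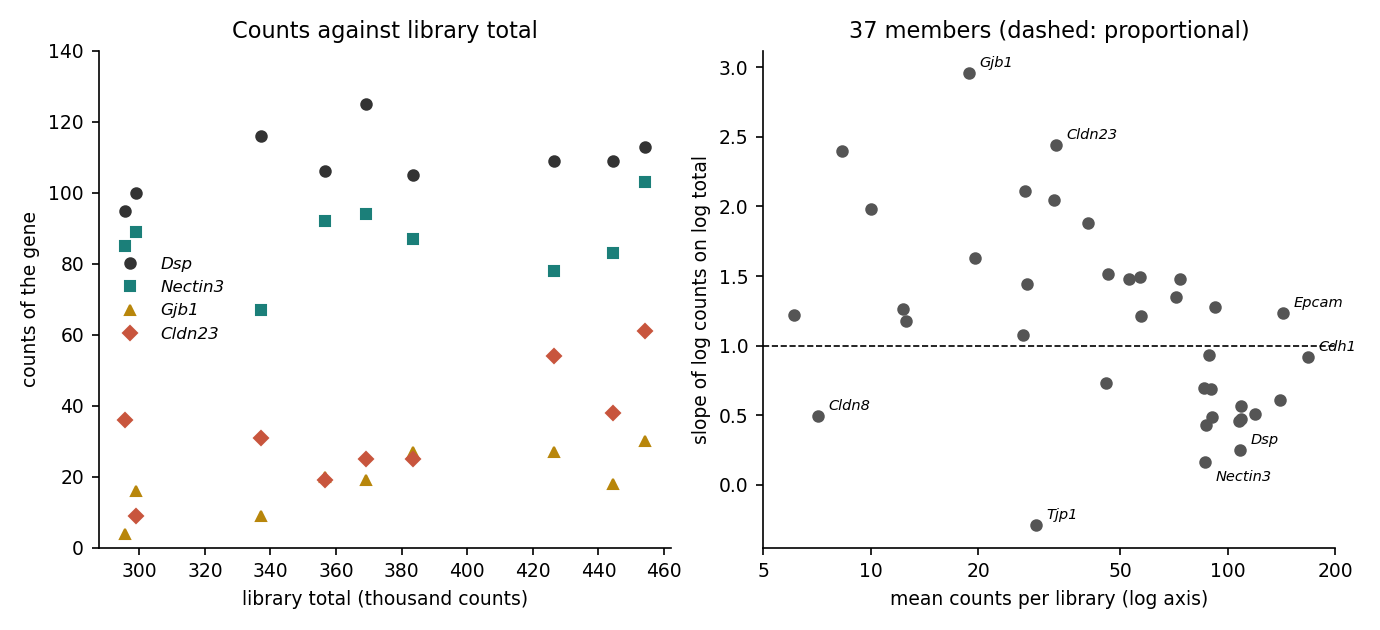
Left, counts of Dsp, Nectin3, Gjb1 and Cldn23 in each of the 9 libraries against the library total. Right, slope of log counts on log total for the 37 members with a count in every library against their mean count (log axis), with the dashed line at proportional growth; most members with 80 or more counts lie below it, among them Dsp at 0.247 and Nectin3 at 0.162.

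The called members lay on different chromosomes. Among all 38, 3 pairs lay within 1 Mb of each other, namely Ocln and Marveld2 (43.2 kb), Cldn3 and Cldn4 (39.3 kb) and Dsc2 and Dsg2 (499 kb). In none of these pairs did both genes pass the test.

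The other marker lists give the setting of the junction genes in the wall. Enteric neuron markers (7 of 7 counted, led by Elavl4) had means of 251 ± 97.4 CPM in WT_SE and 300.3 ± 86.97 CPM in WT_EE (SD), and Ret was called higher. Immune markers (7 of 8, led by Jchain, with Cd79a at 0 and Ms4a1 called lower) had 479.99 ± 85.1 and 449 ± 55.7 CPM. Fibroblast markers (6 of 6, led by Dcn) had 905 ± 45.9 and 949 ± 163 CPM. Endothelial markers (4 of 4, led by Kdr, which was called higher) had 138 ± 35.3 and 177 ± 31.9 CPM, and mesothelial markers (4 of 4, led by Wt1, with Upk3b called lower) 16.2 ± 11.97 and 10.96 ± 5.44 CPM. Calls here are unadjusted, and marker genes named for a call were chosen after their values were seen.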

How the data were processed

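The authors prepared QuantSeq 3′ libraries and deposited counts of unique molecules per Ensembl gene for each mouse, as whole numbers without normalization. The submitters' processing notes name fastp 0.20.0, STAR 2.7.0f, featureCounts 1.6.0 of Subread, UMI-tools and the build GRCm38.p6. Symbols and positions came from GENCODE mouse release 21 and promoters from RefSeq.

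Genes that reached 4 CPM in any library were tested in R 4.3.3 with edgeR 4.0.16 (TMM, estimated dispersions, quasi-likelihood F test, environment as the only term), with Benjamini-Hochberg adjustment across the 17441 genes tested. Standard errors were derived from the F statistic. A two-sided exact permutation test compared mean CPM over every way to part the 9 mice into 4 and 5. Log2 CPM used a prior count of 2. The steps were tested on simulated counts.

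The members and lists were chosen with earlier results of these data known. Values by mouse are given for members with an unadjusted p under 0.05 or groups that do not overlap, the most abundant member of each role class, Epcam, Gjb2 and the claudins with a mean above 3 counts, and also for Dsp and Ppl, which were picked after their counts were seen. Of other junction genes those with an unadjusted edgeR p under 0.05 are named, and of marker lists the most abundant gene and those at 0. Outside this rule, Jam2, Tjap1 and Cdh11 are named for their permutation p, and Dsg3 and other junction genes at or near 0 for their counts. Alternatives covered filters, normalizations, DESeq2 1.42.0, limma-voom (limma 3.58.1), the mouse number, the ending of the library name and leaving out mice. Summaries and plots were made in Python 3.11.15 (numpy 2.4.6, pandas 2.3.3, matplotlib 3.10.9). Counts of every pair of libraries within an environment were compared, and no library was a copy of another of the same environment.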

Additional observations from a re-analysis of the deposited data

Results flagged for a closer look

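In 5 of 76 sets of values (38 junction genes in 2 groups) a single mouse stood far from the others of its group, where chance alone gives about 3.8. Marveld2 in WT_EE mouse 2 was at 20.9 CPM (6 counts), below 47.5 to 49.5 CPM in the other WT_EE mice. Cldn4 in WT_EE mouse 5 was at 55.5 CPM (24 counts), above 19.4 to 28.4 CPM. Cldn12 in WT_SE mouse 5 was at 79.3 CPM (29 counts), above 54.8 to 58.5 CPM in the other WT_SE mice. Pkp2 in WT_SE mouse 3 was at 44 CPM (13 counts), below 69.6 to 73.8 CPM, and Pard3 in WT_SE mouse 2 was at 142 CPM (51 counts), below 167 to 172 CPM. The causes of these values were not tested.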

How the results depend on the processing

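Across 22 alternatives, Cldn23 and Ctnnd1 kept their direction and an unadjusted p under 0.05 in all 22, with log2 fold changes of 0.85 to 1.15 and 0.36 to 0.70 and adjusted p-values of 0.00128 to 0.835 and 0.0175 to 0.997. Tjp1 kept its p in 17, Marveld2 in 14 and Ctnna1 in 12, all with a negative sign throughout. The 1334 genes called became 804 with edgeR's default filter, which tests fewer genes, 643 with DESeq2, 688 with the name ending as a covariate and 680 in libraries with the ending L2 alone, which has fewer samples, and 899 to 1581 when 1 mouse was left out. The 7 genes with an adjusted call became 0 without WT_SE mouse 3, 35 without WT_SE mouse 2, 37 without WT_SE mouse 5, 48 without WT_EE mouse 1, 143 without a filter, and 0 with edgeR's default filter, DESeq2, limma-voom, the newer quasi-likelihood form, the name ending as a covariate and the ending L2 alone. The 3 members called lower became 0 with the name ending as a covariate, 0 with the ending L2 alone, 0 (without WT_SE mouse 3) to 3 when 1 mouse was left out, 1 of these without WT_EE mouse 1, and 5 without WT_EE mice 2 and 4. The 2 called higher stayed at 2 to 3. Adjusted member calls, 0 in the edgeR fit reported, were 2 without a filter (Cldn23 and Ctnnd1), 1 (Cldn23) without WT_SE mouse 5, without WT_EE mouse 3 and with the mouse number as a term, and 0 elsewhere.

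Signs changed only for members without a call. Fold changes by setting were kept for some of the members only, so that the changes listed here may not be complete. Cldn7 was at 0.14 with the name ending as a covariate and 0.15 with the ending L2 alone, and between −0.13 (without WT_SE mouse 2) and 0.0449 (without WT_SE mouse 3) when 1 mouse was left out, with 0.00369 without WT_EE mouse 3. Cldn8 was at 0.27 and 0.28 in the former settings, and between −0.39 (without WT_EE mouse 5) and 0.11 (without WT_SE mouse 3). When 1 mouse was left out, Dsg2 lay between −0.14 without WT_EE mouse 2 and 0.00849 without WT_EE mouse 5, and Gjb2 between −0.12 without WT_EE mouse 5 and 0.39 without WT_EE mouse 2. Over all alternatives, Dsg2 lay between −0.23 and 0.00849 and Gjb2 between −0.12 and 0.455. Without WT_EE mice 2 and 4, Ctnnb1 was at −0.0500 and Cldn15 at −0.0122. In that fit 16 of the 38 members were positive, against 19 in the edgeR fit reported. The causes were not tested.

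With mouse number as a replicate block, 1170 genes were called, 70 of them after adjustment, with 2 members higher and 2 lower. Same-numbered mice are different animals, and the correlations of their deviations were −0.02, 0.05, 0.11 and 0.13. For WT_SE mice 1, 2, 3 and 5 the highest correlation with a WT_EE mouse was 0.18, 0.10, 0.18 and 0.17. In each case that WT_EE mouse had another number, so the numbers do not pair the mice. The fit without WT_EE mice 2 and 4 and the newer quasi-likelihood form were chosen after seeing the data. With 4 and 5 mice and totals of at most 454043 counts, small differences in rare members such as Nectin1, Ppl, Cldn8 and Gjb2 were not detectable.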

Other observations

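WT_EE mice 2 and 4 both lay above the other 3 WT_EE mice in 10 of the 38 junction genes and both below them in 5, by normalized CPM, and this split was chosen after the values were seen. These are 26.3% and 13.2% of the members, beside 15.9% and 14.9% of all 17441 genes tested and 19.1% and 17.8% of the 10830 genes with a mean of 5 or more counts, so that such a split was common in these libraries. Above were Cdh17, Afdn, Ctnna1, Ctnnb1, Ctnnd1, Dsg2, Dsp, Perp, Cldn15 and Cldn3, with Dsp at 331 and 359 CPM in these mice and at 238 to 252 CPM in the others. Below were Nectin2, Ppl, Marveld3, Cldn2 and Gjb1, with Gjb1 at 13.9 and 27.8 CPM in these mice and at 39.3 to 64.8 CPM in the others. Raw counts of Dsp were 95 and 116 in WT_EE mice 2 and 4. They were 113, 109 and 109 in WT_EE mice 1, 3 and 5. Gjb1 stayed lower, with 4 and 9 counts beside 30, 18 and 27. The 10 genes above all belong to the abundant members, whose summed counts did not grow in proportion to the library total. The libraries of WT_EE mice 2 and 4 were the smallest of WT_EE. The part of library size in this split was not tested.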
